A study of Mus musculus with 10 samples.

Results

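The genes described here are 56 that act in the G2 phase and in mitosis, from the cyclins that start division to the kinetochore, spindle and condensin genes that carry it out, chosen by symbol from the 22186 genes of the deposited table for their known roles. All 56 were found in the table and all 56 reached the level needed for testing (a mean of at least 1 FPKM, fragments scaled to transcript length and library size, over the 10 libraries), as did 9869 genes in all. Levels were measured by sequencing of poly(A) RNA in 10 libraries of RAW264.7, a macrophage-like mouse line of tumour origin with the genotype labelled WT: 5 libraries from cells kept for 24 h in medium with doxorubicin and 5 from cells kept for 24 h in medium. The dose differed between sources, with 10 nM in the sample titles, 100 nM in the series design, which asks for the titles to be read so, and 1000 nM from the dilution in the treatment protocol, and the protocol named dimethyl sulfoxide as solvent for the doxorubicin cultures without stating it for the medium cultures. Nothing in the labels ties the 5 libraries of a group to independent cultures, so the spread behind each p-value may be technical.

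Entry into mitosis is driven by CDK1 bound to cyclin B, which is switched on by CDC25 phosphatases and kept on by Polo and Aurora kinases. The chromosomes are compacted by condensin, attached to the spindle through kinetochores and moved by kinesins. The spindle checkpoint holds back the anaphase-promoting complex until all are attached, and CDC20, UBE2C and separase then carry out the exit. Transcription of these genes peaks in G2 and falls in cells that leave the cycle. Many are controlled through a promoter element called the cell cycle genes homology region (CHR), often found near CCAAT boxes. The element is bound by MuvB with B-MYB and FOXM1 when the genes are active and by the DREAM complex when they are repressed, and p53 acts on DREAM through the inhibitor p21. Doxorubicin traps topoisomerase II on DNA and is known to activate p53.

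Promoters of 6 of the genes are shown because they hold both elements although the genes differed in how their levels stood between the groups: Mki67 and Kif11 were lower with doxorubicin within every replicate number, Plk1 within 4 of 5, Cdk1 and Ube2c within 2 of 5, and Ccnf was higher within every number. The sequences are RefSeq windows on GRCm38.p6 that run from 250 bases before to 50 bases after the annotated start, each read 5′ to 3′ on the strand of its gene. The FPKM values rest on GRCm39, so these positions belong to the earlier build. The windows lie at chr7:135716330-135716629 (minus strand) for Mki67, chr19:37376132-37376431 (plus strand) for Kif11, chr7:122159185-122159484 (plus strand) for Plk1, chr10:69352863-69353162 (minus strand) for Cdk1, chr2:164769679-164769978 (plus strand) for Ube2c and chr17:24251360-24251659 (minus strand) for Ccnf. Capitals mark the CHR letters TTTGAA and the CCAAT box letters CCAAT on either strand, which read TTCAAA and ATTGG on the opposite one. In Ube2c a CCAAT and an ATTGG overlap.
Mki67: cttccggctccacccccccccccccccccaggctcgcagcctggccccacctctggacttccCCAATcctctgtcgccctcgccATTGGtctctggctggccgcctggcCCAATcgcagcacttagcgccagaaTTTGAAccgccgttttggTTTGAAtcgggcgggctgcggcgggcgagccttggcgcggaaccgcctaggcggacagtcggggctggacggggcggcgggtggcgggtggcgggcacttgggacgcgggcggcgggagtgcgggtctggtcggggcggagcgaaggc
Kif11: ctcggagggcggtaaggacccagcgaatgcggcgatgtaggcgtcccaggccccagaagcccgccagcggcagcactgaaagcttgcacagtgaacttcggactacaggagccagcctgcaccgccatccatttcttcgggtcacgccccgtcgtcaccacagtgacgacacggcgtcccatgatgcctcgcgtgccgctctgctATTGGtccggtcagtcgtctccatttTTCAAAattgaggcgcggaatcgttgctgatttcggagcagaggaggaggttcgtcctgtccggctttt
Plk1: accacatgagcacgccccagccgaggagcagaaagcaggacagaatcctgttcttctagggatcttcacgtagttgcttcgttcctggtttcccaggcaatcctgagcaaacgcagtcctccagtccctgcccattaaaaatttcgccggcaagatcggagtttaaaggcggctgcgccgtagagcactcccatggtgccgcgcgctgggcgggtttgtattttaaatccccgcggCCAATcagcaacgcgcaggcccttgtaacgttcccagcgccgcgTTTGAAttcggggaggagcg
Cdk1: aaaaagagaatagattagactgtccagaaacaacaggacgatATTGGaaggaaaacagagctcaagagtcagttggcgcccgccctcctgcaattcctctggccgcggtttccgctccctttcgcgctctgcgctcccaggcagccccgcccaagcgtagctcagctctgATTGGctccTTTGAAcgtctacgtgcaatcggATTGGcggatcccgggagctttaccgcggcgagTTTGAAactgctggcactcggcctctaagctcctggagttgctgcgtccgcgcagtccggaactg
Ube2c: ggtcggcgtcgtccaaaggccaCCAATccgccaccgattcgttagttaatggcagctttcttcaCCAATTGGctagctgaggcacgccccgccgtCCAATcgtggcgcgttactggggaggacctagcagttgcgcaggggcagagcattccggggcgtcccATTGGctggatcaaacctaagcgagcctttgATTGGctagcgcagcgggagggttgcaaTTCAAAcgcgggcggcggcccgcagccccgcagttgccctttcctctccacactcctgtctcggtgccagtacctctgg
Ccnf: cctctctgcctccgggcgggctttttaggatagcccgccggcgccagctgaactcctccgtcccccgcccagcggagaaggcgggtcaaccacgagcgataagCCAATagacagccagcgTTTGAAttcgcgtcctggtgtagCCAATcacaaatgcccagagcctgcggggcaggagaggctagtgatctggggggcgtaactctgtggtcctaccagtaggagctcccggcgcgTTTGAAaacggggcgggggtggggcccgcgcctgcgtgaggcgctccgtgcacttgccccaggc

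The CHR letters occurred in 38 of 50 promoter windows of the 47 members with an entry (76.0%), against 17.9% of all 32851 windows of that length and 12.2% of the 10292 windows of the genes tested. CCAAT occurred in 39 of the 50 (78.0%), against 37.4% of all windows, and both occurred in 34 (68.0%), against 6.95% of all windows. A match of letters is a description and was not tested as a binding site. The members listed below as lower with the replicate block held the CHR letters in 12 of 15 windows (80.0%) and the other members in 26 of 35 (74.3%).

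The 56 genes were expressed throughout in both groups. Together they took 0.550% ± 0.0547 of all FPKM with doxorubicin and 0.577% ± 0.0894 in medium (SD, n = 5 each). Their mean levels spanned 127 FPKM (Ube2c, the ubiquitin-conjugating enzyme of mitotic exit) to 3.77 FPKM (Cdc25c, a phosphatase that activates CDK1) with doxorubicin, and 121 to 5.04 FPKM in medium, with the same genes at both ends. After Ube2c in the medium libraries came Cdc20 (110 ± 23.2 FPKM), the activator of the anaphase-promoting complex, Ccnb1 (91.5 ± 17.7) for cyclin B1 and the checkpoint gene Bub3 (89.7 ± 17.9), neighbours whose spreads overlap. At the low end stood the spindle pole gene Aspm (5.71 ± 0.690), the kinesin gene Kif14 (5.67 ± 0.863) and Cdc25c (5.04 ± 0.508). FPKM is scaled to transcript length, so levels can be set side by side between genes, but only roughly. Overlapping genes, copies and processing steps that are not given, described below, limit the comparison. In bulk RNA, fewer dividing cells and less RNA per dividing cell cannot be told apart.

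The libraries of replicate number 1 stood apart for these genes. Medium replicate 1 had the lowest medium value for 52 of the 56 members and doxorubicin replicate 1 the lowest doxorubicin value for 50, with 49 genes in both counts. The median member in doxorubicin replicate 1 was at 0.797 times the mean of doxorubicin replicates 2 to 5, and in medium replicate 1 at 0.689 times the mean of medium replicates 2 to 5. Over all genes tested, the median deviation of these libraries from the other 4 of their group was -0.05 and -0.10 on the log2(FPKM + 1) scale, against -0.30 and -0.51 for the members. Each result is therefore given with the replicate number as a block where that changed a call, and counts of calls are also given without both libraries of number 1 (without the block, where not stated otherwise). Number 1 was singled out by values of these same members, so counts without it are a description and no separate support. Leaving it out moved the median log2 fold change of the members from -0.09 to -0.13. For all genes tested it moved from -0.03 to -0.04.

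**Figure D1:**
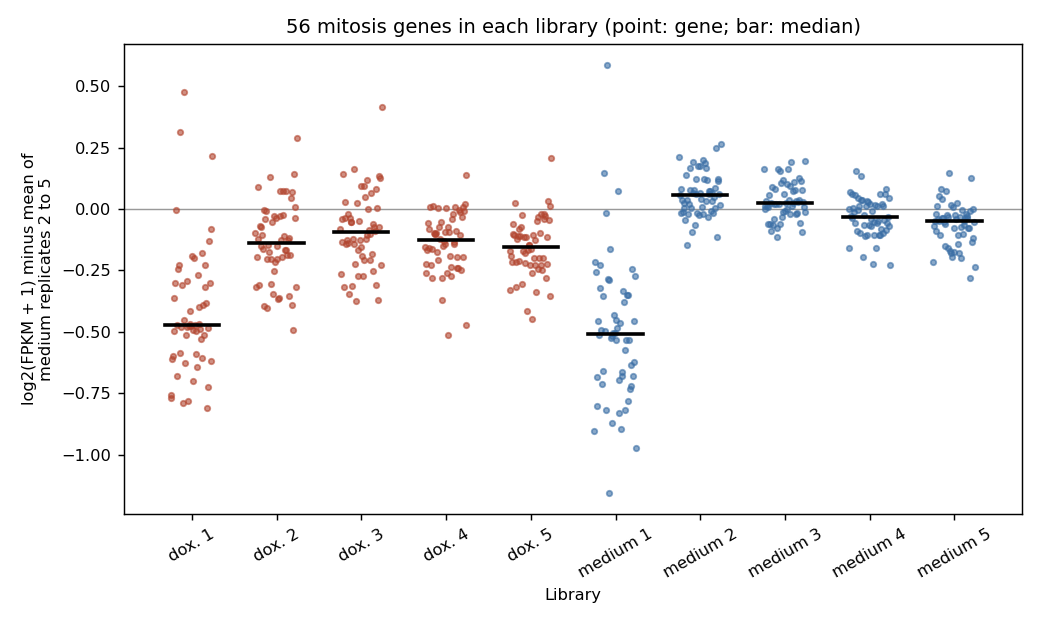
Each point is a member gene, plotted as its log2(FPKM + 1) in a library minus its mean in medium replicates 2 to 5 (vertical axis), for the 5 doxorubicin libraries and then the 5 medium libraries. The bars are medians: -0.47 in doxorubicin replicate 1 and -0.15 to -0.10 in doxorubicin replicates 2 to 5, against -0.51 in medium replicate 1 and -0.05 to 0.06 in medium replicates 2 to 5.

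As for the label, 9 of 10 macrophage markers were above 1 FPKM in some library, with summed levels of 1482 to 1687 FPKM with doxorubicin and 1416 to 1561 in medium. The lists for fibroblasts, epithelium, endothelium and lymphocytes summed to under 1 FPKM in every library, with Col1a2, Krt8 and Cd3e at 0. Neutrophil markers summed to 0.871 to 1.39 FPKM with doxorubicin and 0.583 to 1.74 in medium, with Ly6g at 0. In the whole table, 8207 to 9125 of 22186 genes were listed at 0 per library and FPKM summed to between 338293 and 356111. Cdkn1a, the gene of p21, was at 212, 120, 129, 132 and 143 FPKM in doxorubicin replicates 1 to 5, against 42.5, 52.1, 52.1, 54.4 and 54.0 in medium replicates 1 to 5 (log2 fold change 1.48, SE 0.14, limma adjusted p = 0.00466).

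With group as the only term, 0 of the 56 members passed an adjusted p of 0.05 in either direction (limma), against 0.689% of all genes tested called higher and 0.223% called lower. At an unadjusted p under 0.05 there were 11 members (19.6%), 10 lower and 1 higher, against 17.8% of all genes. The exact permutation test called 0 of all 9869 genes, and its lowest adjusted p was 0.118. The median log2 fold change of the members was -0.09, against -0.03 over all genes, and 43 of 56 (76.8%) lay below 0, against 56.8%. The median was -0.18 without medium replicate 1 (all genes -0.05). Without doxorubicin replicate 1, 32 of 56 lay below 0, with a median of -0.06 against -0.02 for all genes. After median centring 33 lay below 0, with a median of -0.04 against 0.02 for all genes. The 95% intervals of all 56 lay within 1 of 0 on the log2(FPKM + 1) scale, and those of 44 within 0.5. On that scale 1 is a 2-fold change of FPKM + 1, which is a larger change in FPKM for low genes. No member had a log2 fold change beyond 0.5 in either direction (2.61% of all genes did). Groups that did not overlap were found for 2 members, both lower (3.57%), and 0 higher, against 3.97% and 2.73% of all genes. Mean FPKM with doxorubicin was between 0.748 times (Cdc25c) and 1.32 times (Ccnf) that in medium.

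With the replicate number as a block, 18 of the 56 fell with doxorubicin (32.1%) and 0 rose, against 13.7% of all genes called lower and 7.81% called higher. The 18 log2 fold changes ran from -0.36 to -0.17. Without both libraries of number 1 and without the block, 13 fell (23.2%) and 0 rose, against 2.77% of all genes lower and 2.87% higher. With both changes, 27 fell (48.2%) and 1 rose, Ccnf, against 18.4% lower and 10.2% higher. All 18 of the block calls were among these 28, and 10 of them were among the 13. The 9 further falls were those of Plk1, Aurkb, Tpx2, Cdca8, Prc1, Ect2, Espl1, Ncapg and Foxm1. A block of 3 sets (number 1, numbers 2 and 3, numbers 4 and 5) gave 25 lower and 1 higher, against 19.9% and 12.2% of all genes. These sets match correlations between the same libraries and are not given in the labels. Library quality weights gave 25 lower and 1 higher, against 23.3% and 14%. Without medium replicate 1 alone, Spc24 and Cdc25c fell and 0 rose, against 0.912% lower and 1.38% higher.

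**Figure D2:**
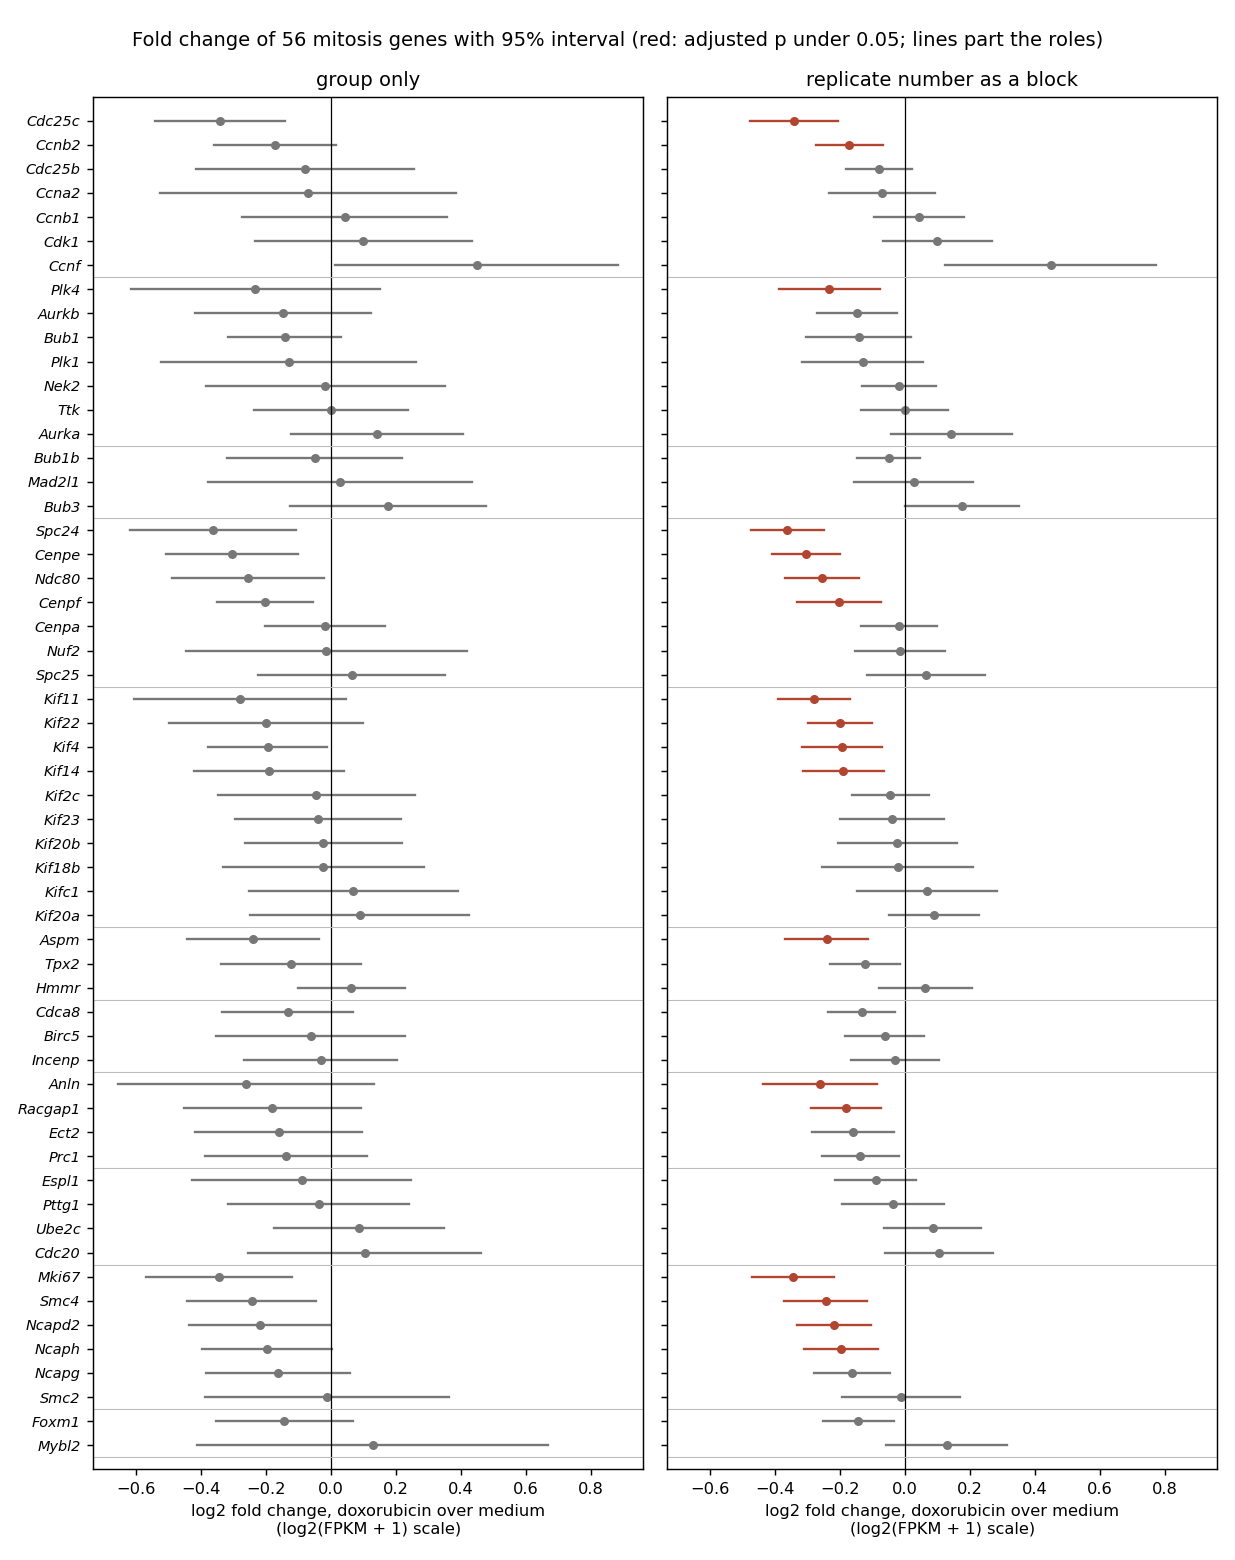
Points are log2 fold changes of the 56 members, doxorubicin over medium, on the log2(FPKM + 1) scale (horizontal axis), with 95% limma intervals as lines, for the fit with group only (left) and with the replicate number as a block (right). Genes are ordered by role and red marks an adjusted p under 0.05: 0 genes on the left and 18 on the right, all of them below 0.

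Within replicate numbers 1 to 5, the median member differed by 0.03, -0.21, -0.11, -0.11 and -0.08 on the log2 scale (doxorubicin minus medium), against 0.02, -0.07, 0.00, -0.03 and -0.03 for the median of all genes tested. In number 1, 24 of 56 members were lower with doxorubicin, and in numbers 2 to 5 the counts were 53, 49, 41 and 39. Over all 9869 genes tested, the counts in numbers 1 to 5 were 4735, 6961, 4830, 5650 and 5649. A difference below 0 in all 5 numbers was seen for 22 members (39.3%, against 23.1% of all genes) and above 0 in all 5 for 2, Ccnf and Bub3 (against 13.2% of all genes). Numbers 2 to 5 all lay below 0 for 33 members (58.9%, against 30.8% of all genes), and 11 of these lay above 0 in number 1, among them Plk1, Plk4, Tpx2, Prc1, Anln and Espl1.

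**Figure D3:**
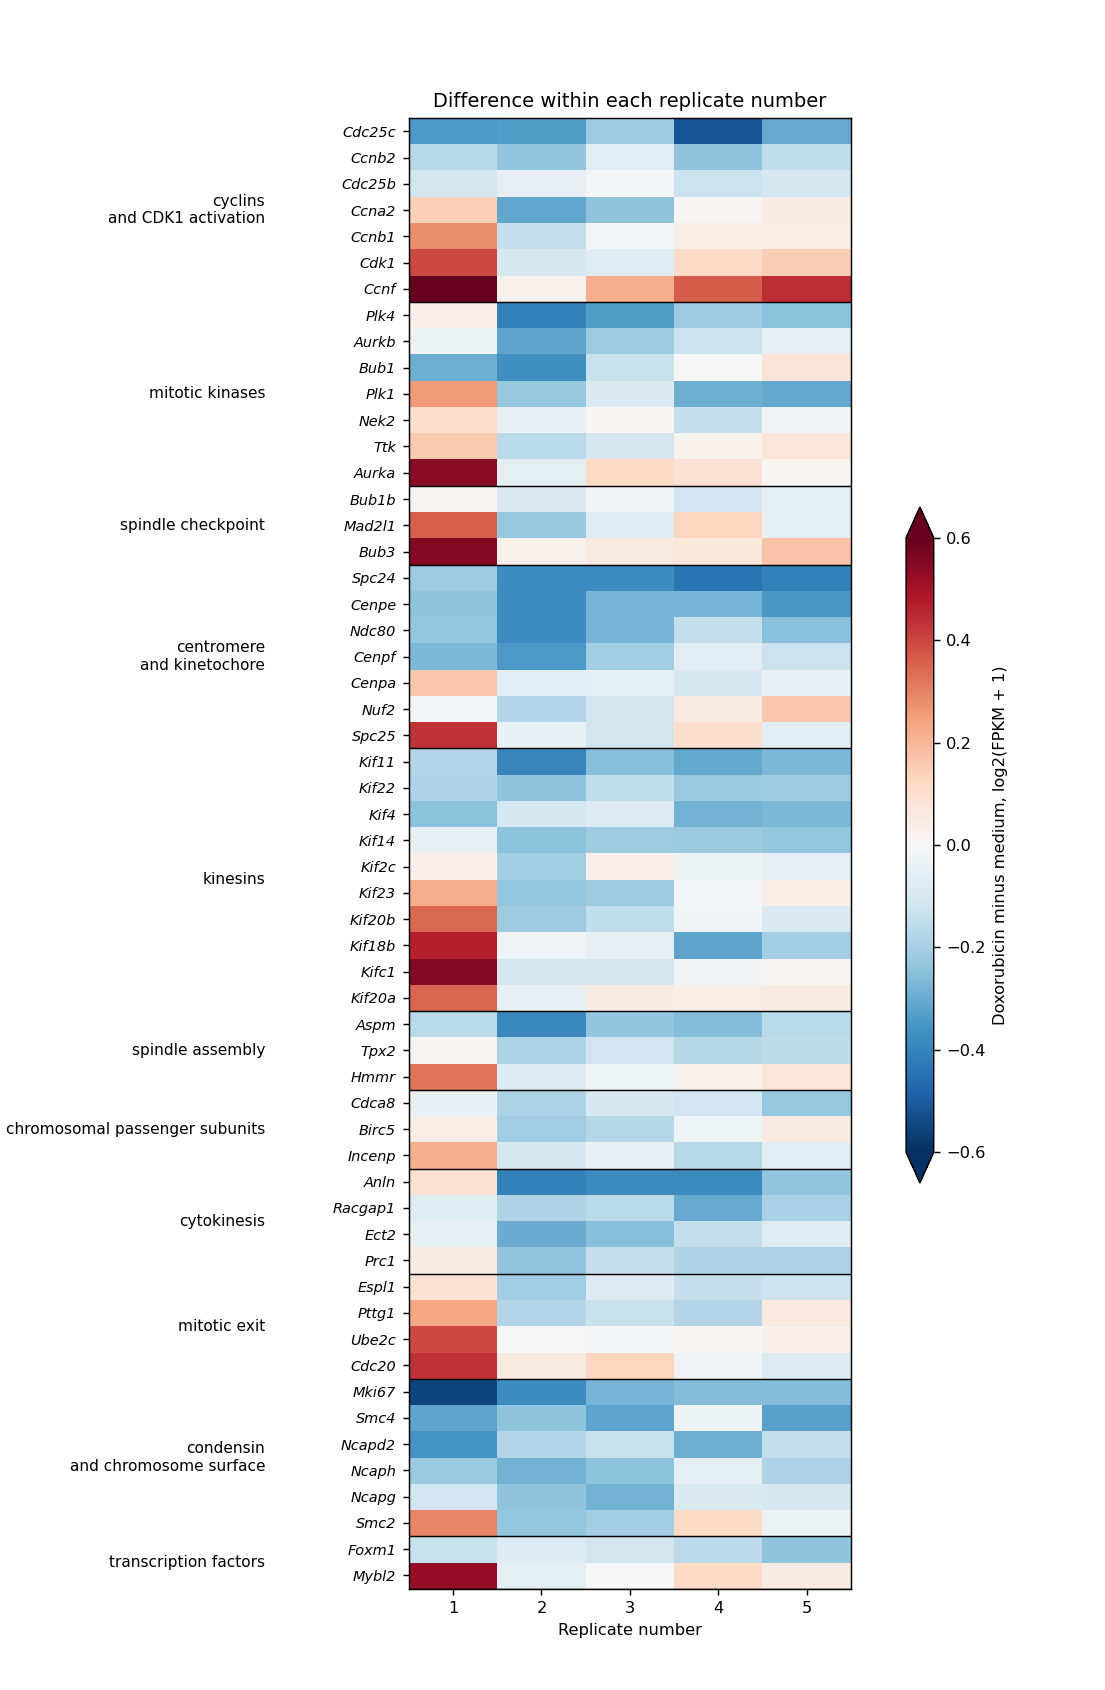
Colour gives the difference between the doxorubicin and the medium library of the same replicate number on the log2(FPKM + 1) scale, for 56 genes (rows, by role and then by fold change) in replicate numbers 1 to 5 (columns). Blue is lower and red higher with doxorubicin, with the scale ending at 0.6. Blue in all 5 columns are 4 of 7 centromere and kinetochore genes, such as Spc24. So are 5 of 6 condensin and chromosome surface genes, such as Ncapd2 and Mki67, against 23.1% of all genes tested. Ccnf and Bub3 are red in all 5, and number 1 holds 32 of 56 genes above 0.

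The transcription factors that drive the G2 genes were Foxm1 and Mybl2, which encodes B-MYB. Foxm1 stood at 10.8, 14.1, 14.4, 13.7 and 12.7 FPKM in doxorubicin replicates 1 to 5, against 11.9, 14.9, 15.5, 15.4 and 15.2 in medium replicates 1 to 5. The groups overlapped through the low value of medium replicate 1, although doxorubicin was lower within each number. The log2 fold change was -0.14 (SE 0.10, adjusted p = 0.462; 0.0616 with the block). Foxm1 fell in the other block fits, at an adjusted p of 0.0250 with 3 sets and 0.0447 without number 1, and with library weights (0.00998). Mybl2 was at 45.7 ± 9.25 FPKM with doxorubicin and 43.2 ± 13.7 in medium (0.13, adjusted p = 0.836), with a within-number difference of 0.53 in number 1 and -0.06 to 0.12 in numbers 2 to 5.

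Among the cyclins and the activators of CDK1, 0 of 7 passed with group only (median -0.07, against -0.03 for all genes tested). With the block Cdc25c and Ccnb2 fell and 0 rose, against 13.7% and 7.81% of all genes. Without number 1, Cdc25c fell, against 2.77% of all genes. Cdc25c had 3.08, 4.02, 4.35, 3.51 and 3.89 FPKM in doxorubicin replicates 1 to 5, against 4.17, 5.33, 5.20, 5.45 and 5.04 in medium replicates 1 to 5. Apart from medium replicate 1, every medium value was above every doxorubicin value. The log2 fold change was -0.34 (SE 0.09, adjusted p = 0.113; 0.00805 with the block). Ccnb2, for cyclin B2, was at 43.2 ± 3.69 FPKM with doxorubicin and 48.8 ± 4.60 in medium (-0.17, adjusted p = 0.321; 0.0318 with the block). Cdc25b, a related phosphatase gene, was at 21.5 ± 4.35 and 22.9 ± 5.10 FPKM in doxorubicin and medium (-0.08, adjusted p = 0.834) and was 1 of 3 members whose medium replicate 1 value, 31.5 FPKM, was the highest of its group.

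The main mitotic cyclin and its kinase did not pass in either fit. Ccnb1 had 74.8, 97.2, 99.1, 97.6 and 96.7 FPKM in doxorubicin replicates 1 to 5, against 61.4, 108, 99.7, 95.1 and 94.0 in medium replicates 1 to 5. Medium replicate 1 was lowest and medium replicate 2 highest of all 10, and in numbers 3, 4 and 5 the log2 differences were -0.01, 0.04 and 0.04. Over all libraries the log2 fold change was 0.04 (SE 0.14, adjusted p = 0.919), and with the block its 95% interval ran from -0.10 to 0.18. Without both number 1 libraries it was -0.02. Cdk1 had 22.5, 28.7, 29.6, 26.4 and 26.3 FPKM in doxorubicin replicates 1 to 5, against 16.8, 30.7, 31.2, 24.3 and 23.6 in medium replicates 1 to 5. It was below medium in numbers 2 and 3 and above it in numbers 1, 4 and 5 (log2 fold change 0.10, SE 0.15, adjusted p = 0.788; interval -0.07 to 0.27 with the block). Ccna2, for cyclin A2, was at 39.3 ± 6.99 FPKM with doxorubicin and 42.3 ± 11.8 in medium (-0.07, adjusted p = 0.899), with differences of -0.31 and -0.24 in numbers 2 and 3 and 0.01 and 0.04 in numbers 4 and 5.

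Ccnf, for cyclin F, a subunit of a ubiquitin ligase that marks proteins for destruction in G2, had the highest fold change of the 56. It stood at 33.9, 35.7, 39.0, 32.001 and 33.7 FPKM in doxorubicin replicates 1 to 5, against 14.3, 35.0, 33.4, 24.6 and 24.5 in medium replicates 1 to 5. The doxorubicin libraries lay close together, while the medium libraries fell into 3 levels, with number 1 lowest, 4 and 5 between, and 2 and 3 within the doxorubicin range. The log2 fold change was 0.45 (SE 0.20, adjusted p = 0.271; 0.0543 with the block), and within numbers 1 to 5 it was 1.19, 0.03, 0.22, 0.36 and 0.44. In the block fit that leaves out number 1 it passed, at 0.26 (adjusted p = 0.0166).

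Of 7 mitotic kinase genes, 0 passed with group only and with the block Plk4 fell (median -0.13), a share near the 13.7% of all genes called lower in that fit. Without number 1, Plk4 and Plk1 fell, against 2.77% of all genes. Plk4, the kinase of centriole duplication, was at 9.82 ± 1.62 FPKM with doxorubicin and 11.9 ± 2.76 in medium (-0.23, adjusted p = 0.520; 0.0416 with the block). Plk1, the Polo kinase of mitotic entry, had 34.8, 47.9, 51.0, 45.2 and 43.3 FPKM in doxorubicin replicates 1 to 5, against 29.0, 56.2, 54.2, 55.6 and 53.7 in medium replicates 1 to 5. All 4 medium libraries of numbers 2 to 5 were above all 5 doxorubicin libraries, and medium replicate 1 was below them. Over all libraries the log2 fold change was -0.13 (SE 0.18, adjusted p = 0.754; 0.266 with the block), and without both number 1 libraries Plk1 fell by 0.23 (adjusted p = 0.0445; 0.00811 with the block). Number 1 was the only number in which Plk1 was higher with doxorubicin (0.26), so leaving it out in itself favours this fall.

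Aurka, for the Aurora kinase of spindle poles, was at 55.6, 59.2, 64.4, 59.6 and 59.3 FPKM in doxorubicin replicates 1 to 5, against 37.9, 61.4, 59.2, 55.97 and 58.8 in medium replicates 1 to 5. Only medium replicate 1 stood away from the rest (log2 fold change 0.14, SE 0.12, adjusted p = 0.575; interval -0.04 to 0.33 with the block). Aurkb, the Aurora kinase of centromeres, was lower within each number without passing (36.8 ± 3.81 FPKM with doxorubicin and 41.2 ± 7.24 in medium, -0.15, adjusted p = 0.564; 0.0799 with the block), and it fell with the 3-set block (adjusted p = 0.0343) and in the block fit without number 1 (0.0268). Bub1 was at 24.5 ± 1.86 and 27.2 ± 2.53 FPKM in doxorubicin and medium (-0.14), Ttk at 14.1 ± 1.18 and 14.2 ± 2.20 (0.00) and Nek2 at 20.8 ± 3.75 and 21.2 ± 4.37 (-0.02), and 0 of these 3 passed in either fit.

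Of the 3 other spindle checkpoint genes, 0 passed with or without the block, which called 13.7% of all genes lower and 7.81% higher. Bub3, a kinetochore-binding checkpoint protein gene, had 88.5, 107, 106, 97.5 and 99.2 FPKM in doxorubicin replicates 1 to 5, against 60.1, 105, 102, 92.99 and 88.1 in medium replicates 1 to 5. It was higher with doxorubicin in each number, by 0.03 to 0.17 on the log2 scale in numbers 2 to 5 and by 0.55 in number 1 (log2 fold change 0.17, SE 0.14, adjusted p = 0.543; 0.130 with the block). Mad2l1 was at 29.7 ± 4.35 FPKM with doxorubicin and 29.8 ± 7.96 in medium (0.03), and Bub1b at 70.5 ± 8.63 and 73.3 ± 10.7 (-0.05).

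The 7 centromere and kinetochore members had a median of -0.20, against -0.03 for all genes tested. The 32 other genes of this kind, listed further below, had a median of -0.08. With the block 4 of the 7 fell and 0 rose, against 13.7% and 7.81% of all genes. Without number 1 only Spc24 of the 7 fell, against 2.77% of all genes. Spc24, a subunit of the NDC80 complex that grips microtubules, had the largest negative fold change of the 56 and the smallest adjusted p with the block. It stood at 16.0, 20.4, 21.9, 18.4 and 19.3 FPKM in doxorubicin replicates 1 to 5, against 18.7, 26.8, 28.6, 25.3 and 25.8 in medium replicates 1 to 5. The 4 medium libraries of numbers 2 to 5 exceeded every doxorubicin library. The log2 fold change was -0.36 (SE 0.12, adjusted p = 0.151; 0.00363 with the block), with -0.22, -0.38, -0.37, -0.44 and -0.40 within numbers 1 to 5.

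Ndc80 itself had 10.98, 12.7, 13.2, 15.8 and 14.6 FPKM in doxorubicin replicates 1 to 5, against 13.1, 16.8, 16.2, 17.6 and 17.5 in medium replicates 1 to 5 (-0.26, SE 0.11, adjusted p = 0.241; 0.0124 with the block). The other subunits of this complex were Nuf2, at 11.7 ± 2.47 FPKM with doxorubicin and 11.9 ± 3.16 in medium (-0.02, adjusted p = 0.977), and Spc25, at 20.8 ± 1.47 and 20.1 ± 3.91 (0.06, adjusted p = 0.847). With the block their 95% intervals were -0.15 to 0.12 for Nuf2 and -0.12 to 0.25 for Spc25, against -0.48 to -0.25 for Spc24 and -0.37 to -0.14 for Ndc80. The difference between subunits was not tested.

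Cenpe, the kinetochore motor gene, had 17.2, 17.1, 18.7, 21.2 and 20.8 FPKM in doxorubicin replicates 1 to 5, against 20.5, 22.5, 22.9, 25.9 and 26.8 in medium replicates 1 to 5. The groups overlapped only through medium replicate 1, which was below doxorubicin replicates 4 and 5 (log2 fold change -0.30, SE 0.09, adjusted p = 0.133; 0.00494 with the block). Cenpf, a large kinetochore protein gene, had 8.73, 7.68, 8.68, 9.61 and 9.39 FPKM in doxorubicin replicates 1 to 5, against 10.8, 10.0, 10.2, 10.1 and 10.4 in medium replicates 1 to 5. Its groups did not overlap, as for 1 other member, Mki67, and for 3.97% of all genes in the lower direction. The log2 fold change of Cenpf was -0.20 (SE 0.07, adjusted p = 0.159; 0.0371 with the block). Cenpa, the centromeric histone gene, was at 56.3 ± 7.35 and 56.8 ± 2.85 FPKM in doxorubicin and medium (-0.02, adjusted p = 0.938).

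The 10 kinesin genes had a median of -0.04, and with the block 4 fell (Kif11, Kif22, Kif4 and Kif14) and 0 rose, against 13.7% of all genes lower. Without number 1 the median was -0.13 and 2 fell, Kif11 and Kif14, against 2.77% of all genes. Kif11, the motor that pushes spindle poles apart, had 15.3, 20.8, 22.1, 23.1 and 22.6 FPKM in doxorubicin replicates 1 to 5, against 17.4, 27.6, 26.5, 28.8 and 27.4 in medium replicates 1 to 5. Numbers 2 to 5 were split cleanly, and both number 1 libraries lay below all of them (log2 fold change -0.28, SE 0.15, adjusted p = 0.347; 0.00782 with the block). Kif22, a motor that binds chromosome arms, had 16.1, 24.5, 24.1, 21.6 and 21.0 FPKM in doxorubicin replicates 1 to 5, against 18.4, 29.1, 26.9, 25.3 and 24.5 in medium replicates 1 to 5. Within each number it was lower by 0.15 to 0.24 on the log2 scale (log2 fold change -0.20, SE 0.14, adjusted p = 0.466; 0.0159 with the block).

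Kif4, another motor bound to chromosomes, had 7.26, 9.31, 9.38, 8.79 and 8.86 FPKM in doxorubicin replicates 1 to 5, against 8.79, 10.1, 9.97, 10.9 and 10.9 in medium replicates 1 to 5 (-0.20, SE 0.08, adjusted p = 0.255; 0.0362 with the block). Kif14, which acts in cytokinesis, was at 4.81 ± 0.473 FPKM with doxorubicin and 5.67 ± 0.863 in medium (-0.19, adjusted p = 0.364; 0.0400 with the block). The other 6 kinesins ran from -0.05 (Kif2c) to 0.09 (Kif20a), and their block-adjusted p lay between 0.315 and 0.881. Kifc1, a motor that bundles spindle fibres, and Kif18b were apart in number 1, at 0.55 and 0.47, against -0.10 to 0.00 and -0.32 to -0.02 in numbers 2 to 5.

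Among the 3 spindle assembly genes, Aspm, which focuses spindle poles, fell with the block, against 13.7% of all genes. Aspm and Tpx2 fell without number 1, against 2.77% of all genes. Aspm had 3.92, 4.49, 4.88, 4.93 and 5.11 FPKM in doxorubicin replicates 1 to 5, against 4.50, 6.18, 5.93, 6.10 and 5.83 in medium replicates 1 to 5 (log2 fold change -0.24, SE 0.09, adjusted p = 0.211; 0.0208 with the block). Tpx2, the activator of Aurora A, was at 42.2 ± 3.45 FPKM with doxorubicin and 46.3 ± 5.80 in medium (-0.12, adjusted p = 0.548; 0.0900 with the block), and it fell without both number 1 libraries (adjusted p = 0.0487). Hmmr was at 24.4 ± 0.712 and 23.4 ± 2.37 FPKM in doxorubicin and medium (0.06, adjusted p = 0.716).

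In the chromosomal passenger complex, which corrects faulty attachments, 0 of 3 subunit genes passed in either fit. The block fit called 13.7% of all genes lower and 7.81% higher. Birc5, the survivin gene, had 50.3, 68.5, 67.5, 63.9 and 63.1 FPKM in doxorubicin replicates 1 to 5, against 49.0, 79.2, 76.1, 65.0 and 61.1 in medium replicates 1 to 5. It was lower with doxorubicin by 0.21 and 0.17 on the log2 scale in numbers 2 and 3, and the other differences lay between -0.02 and 0.05 (log2 fold change -0.06, SE 0.13, adjusted p = 0.850; interval -0.18 to 0.06 with the block). Incenp was at 58.2 ± 4.16 FPKM with doxorubicin and 59.9 ± 8.75 in medium (-0.03), and Cdca8 at 55.8 ± 4.83 and 61.5 ± 6.75 (-0.13, adjusted p = 0.474; 0.0656 with the block).

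All 4 cytokinesis genes had negative fold changes (median -0.17), as did 56.8% of all genes. Racgap1 and Anln fell with the block, against 13.7% of all genes. Without number 1 these and Prc1 fell, against 2.77% of all genes, with a median of -0.20. Anln, for the actin-binding anillin of the cleavage furrow, was at 19.2 ± 2.57 FPKM with doxorubicin and 23.7 ± 5.88 in medium (-0.26, SE 0.18, adjusted p = 0.474; 0.0424 with the block), with 0.09 in number 1 and -0.41, -0.38, -0.38 and -0.24 in numbers 2 to 5. Racgap1, a GTPase regulator of the central spindle, was at 41.6 ± 4.89 and 47.5 ± 7.28 FPKM in doxorubicin and medium (-0.18, adjusted p = 0.474; 0.0291 with the block). Ect2 was at 14.0 ± 1.88 and 15.8 ± 2.22 FPKM (-0.16; 0.0671 with the block) and Prc1 at 32.7 ± 3.01 and 36.3 ± 5.40 (-0.14; 0.0882 with the block).

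Mitotic exit genes had a median of 0.02 over all libraries and of -0.05 without number 1, and 0 of 4 passed with group only, with the block or without number 1. Of all genes, 13.7% were called lower with the block and 2.77% without number 1. Cdc20 had 93.1, 128, 133, 115 and 112 FPKM in doxorubicin replicates 1 to 5, against 68.4, 123, 121, 117 and 118 in medium replicates 1 to 5. It was higher with doxorubicin in numbers 1, 2 and 3 and lower in 4 and 5 (log2 fold change 0.10, SE 0.16, adjusted p = 0.796; interval -0.06 to 0.27 with the block). Ube2c was at 127 ± 9.34 FPKM with doxorubicin and 121 ± 20.5 in medium, and within numbers 2 to 5 the differences lay between -0.01 and 0.03 on the log2 scale. Pttg1, for securin, was at 23.6 ± 2.38 and 24.5 ± 4.60 FPKM in doxorubicin and medium (-0.04), and Espl1, for separase, at 16.9 ± 2.48 and 18.3 ± 3.66 (-0.09, adjusted p = 0.808).

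Condensin subunits and the chromosome surface protein Ki-67 had a median of -0.21 (-0.19 without number 1), close to that of the 7 centromere and kinetochore members. With the block 4 of 6 fell and 0 rose, against 13.7% of all genes lower. Without number 1 Mki67 and Ncapd2 fell, against 2.77% of all genes. Mki67, a widely used marker of dividing cells, had 39.3, 54.1, 56.3, 56.4 and 53.8 FPKM in doxorubicin replicates 1 to 5, against 58.3, 70.5, 68.4, 67.7 and 64.5 in medium replicates 1 to 5. Every doxorubicin library was below every medium library. The log2 fold change was -0.35 (SE 0.10, adjusted p = 0.131; 0.00617 with the block), and within number 1, -0.56, it was larger than the -0.37 to -0.26 of numbers 2 to 5.

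Smc4, an ATPase core subunit of condensin, had 33.1, 37.5, 35.7, 44.9 and 41.1 FPKM in doxorubicin replicates 1 to 5, against 41.5, 44.5, 44.7, 45.9 and 51.7 in medium replicates 1 to 5 (-0.25, SE 0.09, adjusted p = 0.195; 0.0189 with the block). Ncapd2, a condensin I subunit gene, had 27.9, 37.5, 39.1, 36.7 and 37.6 FPKM in doxorubicin replicates 1 to 5, against 36.0, 42.6, 43.1, 45.2 and 41.6 in medium replicates 1 to 5 (-0.22, SE 0.10, adjusted p = 0.274; 0.0194 with the block). In both genes the value of medium replicate 1 was the lowest of its group and fell among the doxorubicin libraries. Ncaph was at 21.8 ± 2.24 FPKM with doxorubicin and 25.2 ± 2.45 in medium (-0.20; 0.0267 with the block) and Ncapg at 17.0 ± 1.67 and 19.2 ± 2.46 (-0.16; 0.0520 with the block). Smc2, the partner of Smc4, was at 25.7 ± 3.55 and 26.4 ± 6.12 FPKM in doxorubicin and medium (-0.01, adjusted p = 0.977), with 0.29 in number 1.

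**Figure D4:**
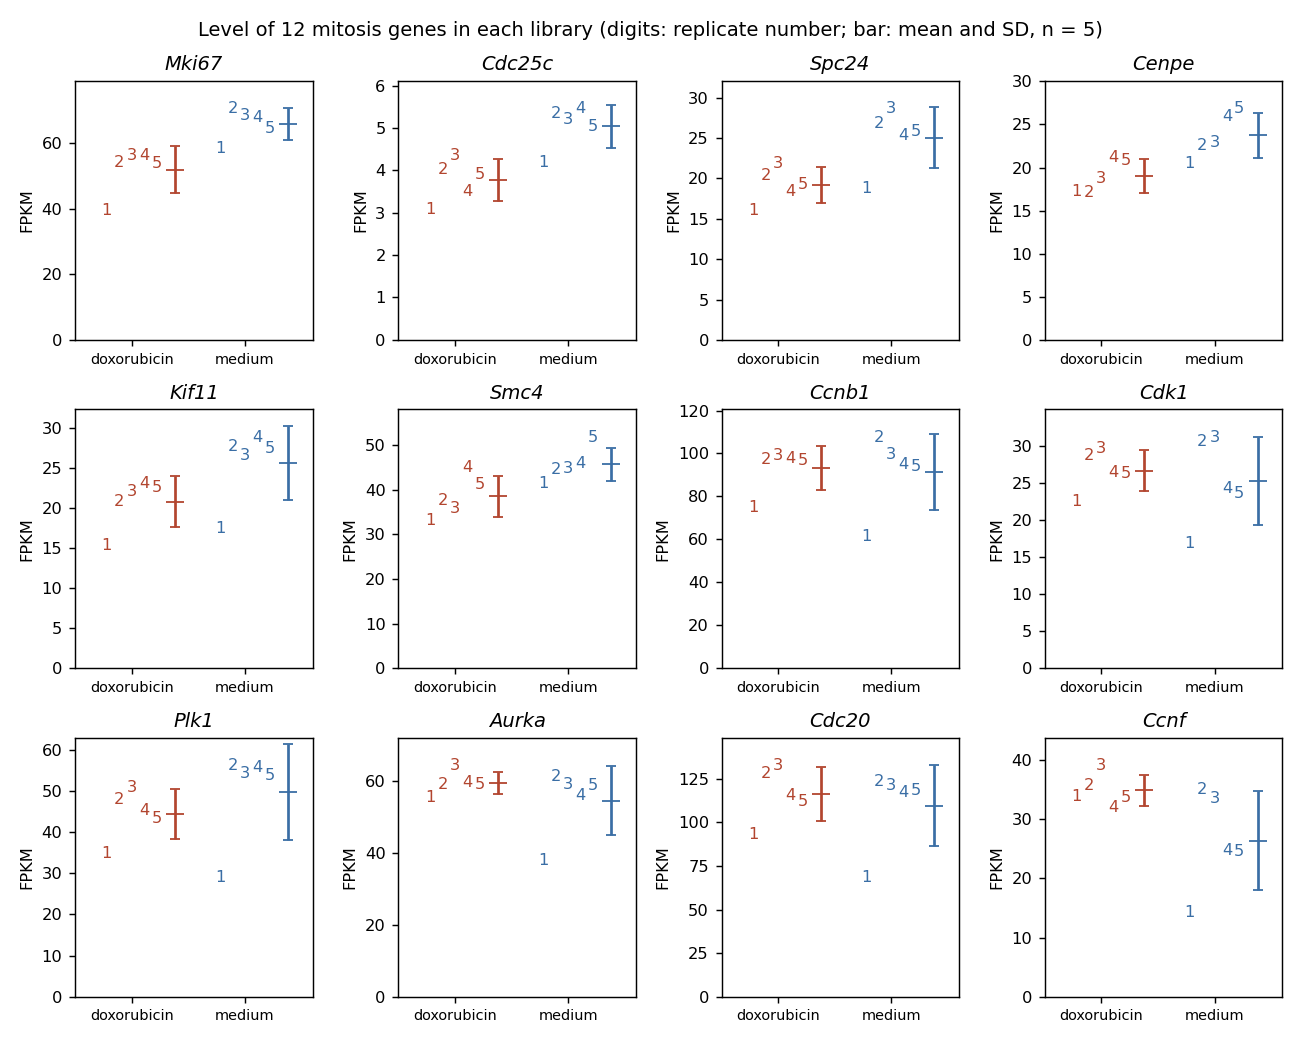
FPKM (vertical axes, from 0) of 12 members in the 5 doxorubicin and the 5 medium libraries, with each library drawn as its replicate number and the mean and SD (n = 5) as a bar beside it. Mki67 does not overlap between the groups, Cdc25c, Spc24, Cenpe, Kif11 and Smc4 overlap through number 1 or single libraries, and Ccnb1, Cdk1, Aurka and Cdc20 overlap throughout apart from the low medium replicate 1.

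The libraries also differed between replicate numbers 2 and 3 and numbers 4 and 5. Both libraries of numbers 2 and 3 exceeded both of numbers 4 and 5 for 29 of 56 members with doxorubicin (51.8%) and for 34 in medium (60.7%), against 25.5% and 31.9% of all genes tested. The reverse held for 11 members with doxorubicin (19.6%) and 9 in medium (16.1%), against 35.6% and 41.5% of all genes. Ccna2 was at 43.2 and 43.8 FPKM in doxorubicin replicates 2 and 3 and at 41.6 and 41.0 in 4 and 5, against 53.9 and 52.0 in medium replicates 2 and 3 and 41.4 and 39.7 in 4 and 5. Whether the numbers mark separate runs of the culture is not given in the labels, and its part in the results was not tested.

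Beyond the 56, 109 other genes of mitosis were set beside them in 6 lists, and all 109 were tested. With group only 1 rose and 0 fell, and with the block 5 rose and 26 fell (median -0.09), against 7.81% of all genes higher and 13.7% lower. Without number 1, 4 rose and 16 fell, against 2.87% and 2.77%. The gene that rose was Psrc1, for a spindle protein and known p53 target. It had 54.7, 29.0, 33.1, 37.9 and 39.7 FPKM in doxorubicin replicates 1 to 5, against 24.0, 17.4, 16.9, 21.2 and 20.4 in medium replicates 1 to 5, with no overlap (log2 fold change 0.91, SE 0.16, adjusted p = 0.0285; above 0.05 in 7 of 10 fits without a single library, up to 0.0890). Gtse1, for a microtubule-bound protein that restrains p53 in human cells and is a known p53 target, had 29.2, 22.3, 25.1, 22.7 and 23.6 FPKM in doxorubicin replicates 1 to 5, against 7.22, 15.9, 15.3, 15.4 and 14.6 in medium replicates 1 to 5. Its groups did not overlap either (0.84, SE 0.19, adjusted p = 0.0655; 0.0174 with the block). Neither gene held the CHR letters in its promoter windows, while both held CCAAT.

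Of 32 other kinetochore and centromere genes (median -0.08), 0 passed with group only, and 8 fell and 0 rose with the block (3 and 0 without number 1). For every list in this paragraph, the shares of all genes called with the block are 13.7% lower and 7.81% higher. Without number 1 they are 2.77% and 2.87%. The falls among the 32 included Ska1, which keeps kinetochores on shrinking microtubules (2.64 ± 0.436 FPKM with doxorubicin and 3.74 ± 0.349 in medium, -0.38; 0.00631 with the block), and Kntc1 (-0.28; 0.00666 with the block). Of 21 other spindle and cytokinesis genes, 5 fell with the block beside the rise of Psrc1, the strongest being Spag5, which ties spindle fibres to kinetochores (12.6 ± 0.982 FPKM with doxorubicin and 16.4 ± 1.10 in medium, -0.35, adjusted p = 0.0536; 0.00300 with the block). In 12 other condensin, cohesin and topoisomerase genes 4 fell with the block and 2 without number 1, among them the cohesin gene Stag1 (-0.30), while Ncaph2 of condensin II (-0.14) did not pass.

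Among 16 other entry kinases, phosphatases and regulators 2 rose and 6 fell with the block, against 7.81% and 13.7% of all genes. Without number 1, 1 rose and 4 fell, against 2.87% and 2.77%. The block rises were Gtse1 and Arpp19 (0.22), and the falls included Cdkn3, a phosphatase of CDKs (-0.28; 0.0181 with the block). Of 16 anaphase-promoting complex genes 1 rose with the block, Anapc13 (0.22), and 1 fell, Fzr1, for the activator CDH1 (26.0 ± 1.73 FPKM with doxorubicin and 31.9 ± 2.21 in medium, -0.28, adjusted p = 0.0957; 0.0185 with the block). Of 12 DREAM and MuvB genes 1 rose and 2 fell with the block. For these and the anaphase-promoting complex genes the counts are near the shares of all genes called in that fit, 7.81% higher and 13.7% lower. The rise was that of Mybl1, for the B-MYB relative A-MYB, at 1.34 ± 0.134 FPKM with doxorubicin and 0.756 ± 0.281 in medium (0.43, adjusted p = 0.110; 0.0285 with the block). The medium mean of Mybl1 was below 1 FPKM, so it reached testing only through its doxorubicin values. With no filter on low values, its adjusted p with group only was 0.130 (limma). Lin37 (log2 fold change -0.12) did not pass.

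In the earlier-build annotation 11 of the 56 genes overlap a protein-coding gene on the opposite strand, among them Kif20a with Cdc23, Cdc20 with Elovl1 and Bub3 with Fgfr2, and Foxm1 overlaps Tex52 on the same strand. Strand use and the sharing of reads with copies such as Ccnb1-ps and Kif4-ps are not given in the sources used here, so the values of these genes are uncertain to that extent.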

How the data were processed

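Poly(A) RNA was sequenced from 5 doxorubicin and 5 medium libraries of RAW264.7 cells. The authors deposited 1 table of FPKM values with a column per library, matched here by library name. Per the submitters' processing notes, reads were placed on GRCm39. The aligner, quantifier, annotation and filters are not given in the sources used here. The table holds no read totals and low values show no whole-read steps, so depth is unknown and no counting interval is given.

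Values were analysed as log2(FPKM + 1), and fold changes on that scale understate changes of low genes. The 9869 of 22186 genes whose mean reached 1 FPKM were tested with limma 3.58.1 in R 4.3.3 (two-sided, empirical Bayes with trend). P-values were adjusted by Benjamini-Hochberg over all of them, at 0.05. The fit was also run on simulated data with independent errors around fitted replicate levels. That run checks the code, and because the block was built in it cannot show how reliable the calls in these data are.

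Deviations from the group means correlated at 0.79, 0.70, 0.67, 0.52 and 0.55 between the libraries of numbers 1 to 5 in the titles, all above 0.1, so the number served as a block. Numbers 2 and 3 also correlated across (0.69 and 0.59), as did 4 and 5 (0.51 and 0.51).

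The members and lists were chosen with earlier results of these data known. Values per library are given for a fixed set of 8 members, the 10 with the smallest adjusted p in each fit and the 3 with the highest fold change, and for Cdkn1a; other members are given by mean and fold change. From each list of other genes the 2 with the smallest adjusted p are named. Genes named beyond these were chosen after their values were seen. Promoter windows came from RefSeq on GRCm38.p6. Python 3.11.15 with numpy 2.4.6 and pandas 2.3.3 made the summaries.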

Additional observations from a re-analysis of the deposited data

Results flagged for a closer look

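A value is listed here when it stood so far from the other 4 libraries of its group that its gap to the nearest, over the range of the group, exceeded Dixon's 95% critical value. Chance flags about 1 in 20 independent groups, but these genes vary together across libraries. The share of groups flagged over all genes tested was not computed, so the count below is not read as a trait of the members. Among the 56 members there were 34 such values in 112 groups of 5 libraries: 13 were low and 2 high in doxorubicin replicate 1, 1 was high in doxorubicin replicate 4, and 18 were low in medium replicate 1.

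Among the genes given by library, the low values of doxorubicin replicate 1 were 74.8 FPKM for Ccnb1, 7.26 for Kif4, 27.9 for Ncapd2 and 39.3 for Mki67, and outside the members 10.9 for Spag5 and 7.21 for Stag1. In the same library Anapc13 (64.9 FPKM) and Cdkn1a (212 FPKM) were far above the others. The low values of medium replicate 1 were 29.0 FPKM for Plk1, 37.9 for Aurka, 17.4 for Kif11, 4.50 for Aspm, 68.4 for Cdc20 and 11.9 for Foxm1, and outside the members 3.14 for Ska1, 14.5 for Spag5, 7.22 for Gtse1 and 42.5 for Cdkn1a. Why the libraries of number 1 differ was not tested.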

How the results depend on the processing

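The count of members called lower, 0 of 56 with group only, was 18 with the replicate block, 25 with a block of 3 sets (numbers 1, 2 with 3, 4 with 5), 13 without both number 1 libraries, 27 without them and with the block, and 25 with library quality weights. It stayed at 0 with a pseudocount of 0.1, with no filter, with a filter at 5 FPKM (which left out Cdc25c) and with median centring (median -0.039). These settings were run with group only, where the count was already 0. The block fit was not rerun with them, so they cannot show whether its 18 calls would hold. The exact permutation test (252 splits, smallest p 0.00794) called no gene of the whole table, with a lowest adjusted p of 0.118. Its 0 therefore does not set the members apart from other genes and was not read as stability. The count called higher was 1 with the 3-set block, without the number 1 libraries with the block, and with the weights. Leaving out single libraries gave 0 to 2 lower and 0 to 0 higher, the 2 (Spc24 and Cdc25c) without medium 1, and moved the median of the members, -0.09, over -0.18 (without medium 1) to -0.057 (without medium 2). Median centring left 33 instead of 43 of the 56 below 0.

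All genes called, 90 with group only, came to 57 with the filter at 5 FPKM, 2127 with the replicate block, 3168 with the 3-set block, 556 and 2827 without the number 1 libraries (without and with the block), 3681 with the weights and 0 in the permutation test (1764 at an unadjusted p under 0.05). They came to 49, 53, 33, 24 and 19 without doxorubicin 1 to 5 and to 226, 57, 45, 15 and 34 without medium 1 to 5. Changes of sign occurred for uncalled values. Ccnb1 was at -0.019 without the number 1 libraries (with or without the block), and Cdc20 at -0.014 with the weights. Over single left-out libraries Ccnb1 ran from -0.095 to 0.12, Cdk1 from -0.034 to 0.18 and Cdc20 from -0.056 to 0.18, each lowest without medium 1, and Birc5 from -0.16 to 0.012, above 0 without doxorubicin 1 and without medium 2 (0.0062). Over all settings, the adjusted p of Mki67 ran from 9.91e-04 to 0.291, of Spc24 from 3.37e-04 to 0.324, of Ccnf from 0.00495 to 0.458 and of Ccnb1 from 0.517 to 0.980. The cause was not tested. Depth is unknown, which limits low genes most.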
